A study of Mus musculus with 6 samples.

Results

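The genes described here restrain Wnt signaling, either outside the cell or as feedback inhibitors within it, in dermal fibroblasts that had been placed in adipocyte differentiation medium with or without Nelfb. A list of 10 gene symbols was fixed (Sfrp1, Sfrp2, Sfrp4, Sfrp5, Dkk2, Dkk3, Wif1, Nkd1, Nkd2 and Axin2), and 9 of them were among the 17924 genes measured. Sfrp4 was not analysed here. Nelfb encodes a subunit of the negative elongation factor, a complex that holds RNA Polymerase II near the start of genes. CTL mice were all Pdgfra-Cre+ and either Nelfb fl/wt or Nelfb wt/wt, and which of these genotypes each CTL library carried is not given. Nelfb-/- cells (labelled KO) came from Nelfb fl/fl Pdgfra-Cre+ mice, so that Cre was present in both groups, and deletion was restricted to cells of the Pdgfra lineage. Cultures of both groups were started from fibroblasts isolated from dorsal dermis of newborn (P0) mice, and RNA was taken after 14 days in the medium, from 3 biological replicates of each group. P-values measure the spread between these 3 and 3 cultures.

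Wnt ligands bind Frizzled receptors together with the co-receptors Lrp5 and Lrp6, which leads to stabilization of beta-catenin and transcription through TCF/LEF factors. Secreted frizzled-related proteins carry a domain like that of the receptors and bind Wnt ligands outside the cell, as does Wif1, whereas most Dickkopf proteins block Lrp5 and Lrp6. Nkd1 and Nkd2 bind Dishevelled, and Axin2 is a scaffold of the complex that degrades beta-catenin. Axin2 and Nkd1 are themselves targets of the pathway and so provide negative feedback. In the adipose lineage, canonical Wnt signaling keeps preadipocytes undifferentiated.

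Promoter sequences are shown for members that were higher in Nelfb-/- cells (Sfrp2, Wif1 and Nkd2) and for Dkk2 and Axin2, which had lower mean levels there, so that the regions from which these transcripts start can be set beside their levels. Those of Sfrp1, which was also higher, and of Dkk3 were not analysed here. Each runs 5′ to 3′ on the strand of the gene from 250 bases before to 50 bases after the start annotated by RefSeq (GRCm38.p6), and capitals mark TATAAA on either strand. The windows are chr3:83766071-83766370 (plus strand) for Sfrp2, chr10:121033754-121034053 (plus strand) for Wif1, chr13:73847582-73847881 (minus strand) for Nkd2, chr3:132085042-132085341 (plus strand) for Dkk2 and chr11:108920099-108920398 (plus strand) for Axin2.
Sfrp2: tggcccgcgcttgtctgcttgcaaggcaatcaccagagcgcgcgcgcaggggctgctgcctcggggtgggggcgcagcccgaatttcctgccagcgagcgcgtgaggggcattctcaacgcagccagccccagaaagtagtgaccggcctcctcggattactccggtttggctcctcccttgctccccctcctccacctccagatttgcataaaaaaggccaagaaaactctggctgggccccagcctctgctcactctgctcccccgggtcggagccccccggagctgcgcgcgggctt
Wif1: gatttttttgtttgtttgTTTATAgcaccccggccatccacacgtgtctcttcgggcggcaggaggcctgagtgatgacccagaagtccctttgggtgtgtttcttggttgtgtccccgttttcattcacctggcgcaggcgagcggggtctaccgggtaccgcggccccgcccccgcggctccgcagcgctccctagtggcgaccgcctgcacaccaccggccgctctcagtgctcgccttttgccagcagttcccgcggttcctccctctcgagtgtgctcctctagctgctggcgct
Nkd2: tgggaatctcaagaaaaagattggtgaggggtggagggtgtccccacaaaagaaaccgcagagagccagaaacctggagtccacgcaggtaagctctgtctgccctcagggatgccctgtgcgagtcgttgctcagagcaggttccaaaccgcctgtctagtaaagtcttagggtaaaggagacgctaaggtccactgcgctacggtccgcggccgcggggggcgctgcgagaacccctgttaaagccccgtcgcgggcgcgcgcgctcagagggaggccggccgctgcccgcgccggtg
Dkk2: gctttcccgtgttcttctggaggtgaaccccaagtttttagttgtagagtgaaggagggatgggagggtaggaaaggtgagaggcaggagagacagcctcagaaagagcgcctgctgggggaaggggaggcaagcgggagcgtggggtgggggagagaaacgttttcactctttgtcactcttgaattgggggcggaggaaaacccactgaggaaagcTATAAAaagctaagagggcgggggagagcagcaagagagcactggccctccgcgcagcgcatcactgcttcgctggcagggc
Axin2: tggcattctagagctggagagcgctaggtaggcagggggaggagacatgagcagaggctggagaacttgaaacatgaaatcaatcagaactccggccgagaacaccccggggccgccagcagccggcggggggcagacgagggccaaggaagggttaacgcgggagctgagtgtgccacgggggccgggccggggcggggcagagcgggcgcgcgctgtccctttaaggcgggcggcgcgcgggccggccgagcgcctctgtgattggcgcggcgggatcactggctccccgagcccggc

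All 5 windows were richer in G and C than the median of 52.7% over 32851 promoters of this length, with 57.7% in Dkk2, 63.0% in Wif1 and Nkd2, 66.0% in Sfrp2 and 70.0% in Axin2. TATAAA was found in 2 of the 5 windows, and 13.6% of all promoters held it. In Dkk2 it began 32 bases before the start on the strand of the gene, and in Wif1 a match on the opposite strand began 232 bases before it. CTTTGA, a core of the sequence that TCF/LEF factors bind, was searched on both strands and was in none of these windows, nor in those of Nkd1 and Sfrp5, which are not printed because the window of Nkd1 lies at another start than that of the gene in GENCODE and Sfrp5 was not tested. Of all promoters, 16.0% held it. The window of Frzb, an antagonist described with the other pathway genes, held it on the opposite strand at position -95 from the RefSeq start. The GENCODE starts of Frzb (80447625, minus strand) and of Wif1 (121033960) also differ from the RefSeq starts but lie inside the windows. By the GENCODE start, the match in Frzb lies within the gene and not before it. Such matches describe letters in a short window and not sites that are known to be used.

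Libraries held about 17200000 to 29400000 reads on the listed genes. Values are in CPM (counts of a gene for each 1000000 reads on all listed genes). Detection was taken to begin at 3 reads (the floor), which were worth 0.102 to 0.175 CPM, a limit that covers counting error only. Nelfb was lowered in the Nelfb-/- libraries, from 17.3, 19.6 and 22.3 CPM to 5.50, 3.90 and 5.55 CPM (log2 fold change -1.99, SE 0.22, limma, adjusted p = 0.0050). The summed level of 8 adipocyte markers ranged from 16823 to 26119 CPM in CTL and from 7675 to 17016 CPM without Nelfb, so that the labelled cell type was visible in both groups. CTL replicate 3 and Nelfb-/- replicate 1 stood apart from their groups on the second principal component, which held 27.7% of the variance, and the tests of the members were repeated without them.

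Other cell types were also represented in the libraries. The sum of 8 fibroblast and progenitor markers, among them Pdgfra and 3 collagen genes, ranged from 4371 to 16844 CPM in CTL and from 8253 to 33021 CPM without Nelfb, with CTL replicate 3 as the highest CTL library and Nelfb-/- replicate 1 as the lowest of its group. The sum of 8 macrophage markers did not overlap between groups, with 184 to 677 CPM against 1837 to 5750 CPM. The summed markers were 51.5 to 61.4 CPM against 119.6 to 147 CPM for Schwann cells, 6.91 to 9.21 CPM against 42.3 to 68.6 CPM for skeletal muscle, and 2.75 to 3.17 CPM against 6.69 to 14.6 CPM for keratinocytes. Those of melanocytes (48.6 to 73.7 CPM against 51.9 to 168 CPM), endothelium (7.04 to 11.8 CPM against 8.44 to 22.0 CPM) and smooth muscle and pericytes (768 to 1183 CPM against 629.9 to 1506 CPM) overlapped. Mitf, which is not restricted to melanocytes, held 47.2 to 72.4 CPM of the melanocyte sum in CTL and 21.6 to 96.3 CPM in Nelfb-/- cells. The other 5 melanocyte markers (Dct, Mlana, Pmel, Tyr and Tyrp1) were each called by limma as higher in Nelfb-/- cells (adjusted p at most 0.05 and at least 2-fold, as for 7.58% of all genes tested), as were 7 of 8 macrophage markers, 4 of 4 tested for skeletal muscle, 3 of 5 for Schwann cells, 1 of 4 tested for keratinocytes, 1 of 6 for endothelium and 1 of 8 (Lep) for adipocytes. The calls as lower were 1 of 5 for Schwann cells and 1 of 8 for adipocytes (3.64% of all genes tested), and smooth muscle and pericytes had 0 of 6 in either direction by limma (2 higher and 1 lower at an unadjusted p under 0.05). None of the 8 fibroblast and progenitor markers was called in either direction by limma, with 3 higher and 0 lower at an unadjusted p under 0.05. The defining genes Mlana, Tyr and Tyrp1 of melanocytes and Ckm and Myod1 of skeletal muscle were at or under the floor in every CTL library. Whether these cells have a part in the changes of the Wnt antagonists was not tested, and in bulk RNA fewer cells of a type and less RNA per cell cannot be told apart.

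Genes averaging 10 or more reads were tested with limma, and a gene was called when the adjusted p over all 16252 genes tested was at most 0.05 and the change was at least 2-fold. Of the 9 measured members, 8 were tested, and 4 (Sfrp1, Sfrp2, Wif1 and Nkd2) were called as higher in Nelfb-/- cells, against 7.58% of all genes tested. None was called as lower (0 of 8 by limma, with Dkk2 at an unadjusted p of 0.034), against 3.64% of all genes tested. By quantile normalization, calls over all genes divided into 1014 higher and 834 lower instead of 1232 and 592, the median log2 fold change of all genes moved from 0.068 to -0.068, and the same 4 members were called. The 3 libraries of each group did not overlap at 5 of the 8 tested members, against 38.1% of all genes tested. Of these 5, 4 were higher and 1 (Dkk2) was lower in Nelfb-/- cells, against 22.0% and 16.1% of all genes tested. The median log2 fold change of the 8 members was 0.94, a value that no member was near. Of the 8, 4 lay between 2.21 and 6.76 and 4 between -2.03 and -0.32. With single libraries left out, 1 to 5 members were called, and the count was 1 (Nkd2) without CTL replicate 1, CTL replicate 2 or Nelfb-/- replicate 3. For any value taken alone, the smallest exact permutation p that 3 against 3 libraries allow is 0.1 (two-sided).

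**Figure D1:**
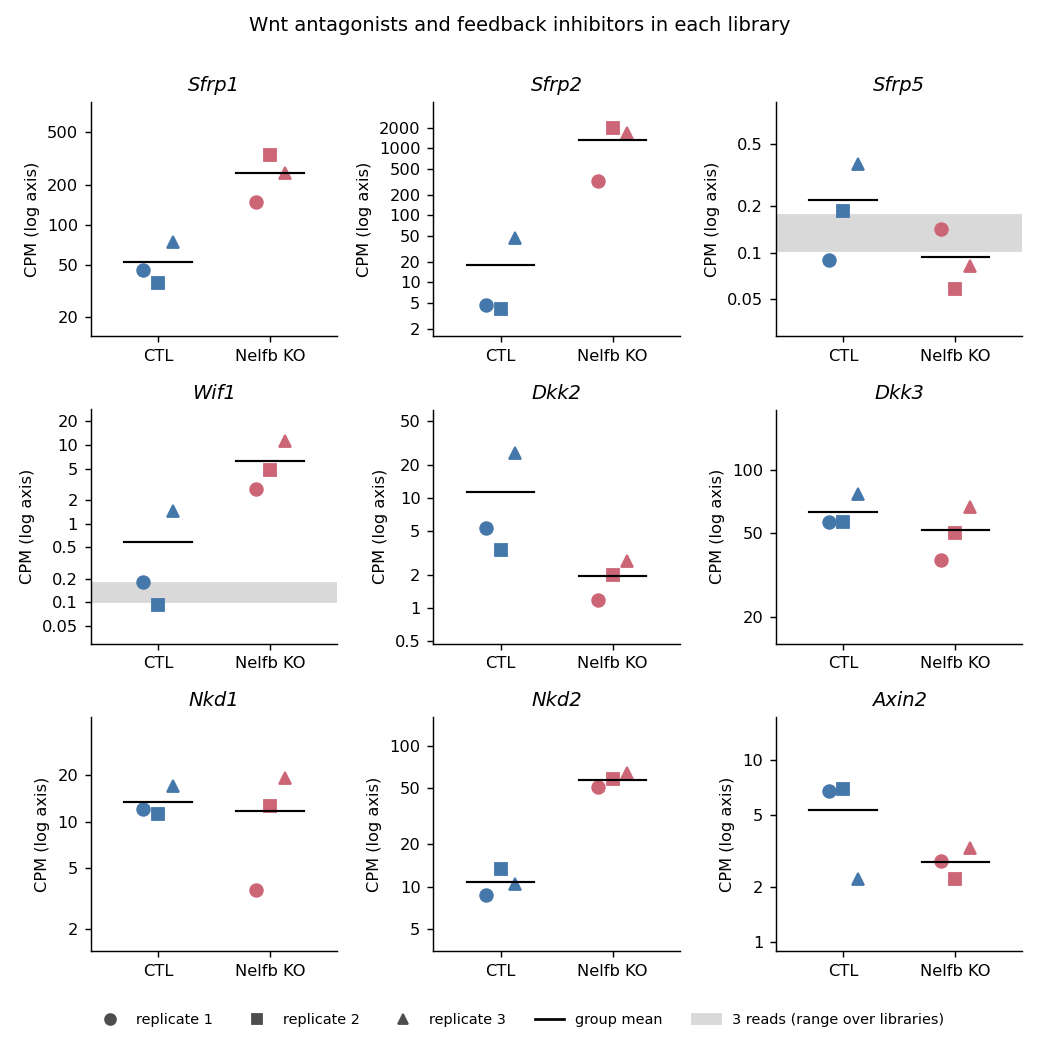
Level of each of the 9 measured members in CPM (log axis) in the 3 CTL and 3 Nelfb KO libraries, with a symbol for each replicate, a line at the group mean and a grey band at 3 reads. Sfrp1, Sfrp2, Wif1 and Nkd2 lie higher in every Nelfb KO library than in every CTL library, Dkk2 lies lower, and CTL replicate 3 is the highest CTL library for Sfrp1, Sfrp2, Sfrp5, Wif1, Dkk2, Dkk3 and Nkd1 and the lowest for Axin2.

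Among the secreted frizzled-related proteins, transcripts of Sfrp2 and Sfrp1 rose in Nelfb-/- cells, and Sfrp2 rose by far more. Sfrp2 (ENSMUSG00000027996, chromosome 3 from 83766321 to 83774316, GRCm38), which binds Wnt ligands and is a known product of dermal fibroblasts, had 4.65, 3.97 and 46.7 CPM in the 3 CTL libraries in the order of their numbers. The 3 Nelfb-/- libraries held 332, 1988 and 1709 CPM. CTL replicate 3 was thus about 10 times above the other CTL libraries and still below the lowest Nelfb-/- library. Expressed as a log2 fold change, the rise was 6.76 (SE 1.11, limma, adjusted p = 0.013). Dropping single libraries gave values from 6.14 to 7.91, with 7.91 without CTL replicate 3 and 7.59 without Nelfb-/- replicate 1, and significance was lost without CTL replicate 1, CTL replicate 2 or Nelfb-/- replicate 3, with an adjusted p from limma of 0.051 to 0.064. Without both CTL replicate 3 and Nelfb-/- replicate 1 it was called. Exons of Sfrp2 overlap those of an antisense gene, Gm26771, in GENCODE, and whether reads were counted by strand is not stated.

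Sfrp1 (ENSMUSG00000031548, chromosome 8 from 23411502 to 23449632), a relative with the same kind of Wnt binding domain, was measured at 46.0, 36.3 and 74.5 CPM in the CTL libraries, whereas Nelfb-/- libraries held 148, 338 and 247 CPM. The groups did not overlap, and the lowest Nelfb-/- library was about 2 times the highest CTL library. In log2 units the rise was 2.21 (SE 0.38, limma, adjusted p = 0.014), between 1.93 and 2.53 with single libraries left out. Its call was lost without the same libraries as that of Sfrp2, at an adjusted p from limma between 0.057 and 0.068. Sfrp5 (ENSMUSG00000018822, chromosome 19 from 42197971 to 42202252), which is known as an adipokine of white fat, was near the floor in all libraries and was not tested. It had 2, 4 and 11 reads (0.0902, 0.187 and 0.374 CPM) in CTL and 3, 1 and 2 reads (0.142, 0.0582 and 0.0816 CPM) in Nelfb-/- libraries, so that a difference was not detectable at this depth.

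The balance within the family differed between the groups. Sfrp2 made up 9.16%, 9.82% and 38.4% of the summed CPM of Sfrp1, Sfrp2 and Sfrp5 in the CTL libraries. In the Nelfb-/- libraries its share was 69.2%, 85.5% and 87.4%. The sum itself went from 50.7, 40.4 and 122 CPM to 480, 2325 and 1956 CPM. The log2 ratio of Sfrp2 to Sfrp1 was -3.29, -3.18 and -0.67 in CTL and 1.17, 2.56 and 2.79 in Nelfb-/- cells, a difference of 4.55 (exact two-sided permutation test, p = 0.1, the smallest that 3 against 3 libraries allow). It was 4.10 to 5.41 with single libraries left out, with the highest value without CTL replicate 3 and an exact permutation p of 0.2 without Nelfb-/- replicate 3. Reads from Sfrp1 therefore outnumbered those from Sfrp2 in every CTL library and were fewer in every Nelfb-/- library. Per kilobase of merged exons, this order turned in CTL replicate 3, with 21.7 CPM per kilobase for Sfrp2 against 17.0 for Sfrp1, and in no other library.

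**Figure D2:**
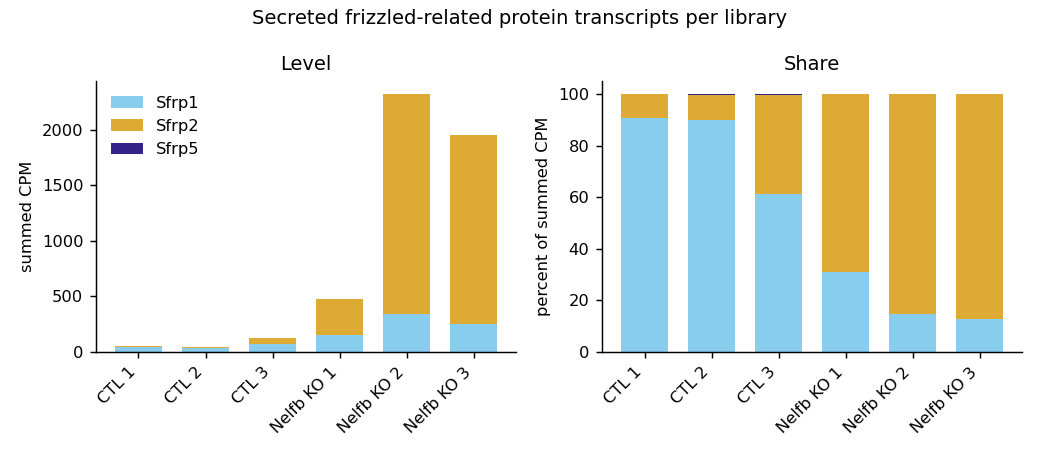
Stacked bars of the summed CPM of Sfrp1, Sfrp2 and Sfrp5 in each library on a linear axis from 0 (left) and the percent of that sum from each gene (right). The sum lies between 40.4 and 122 CPM in CTL and between 480 and 2325 CPM in Nelfb KO libraries, with Sfrp2 as the larger share only in the latter 3 (CPM, not corrected for length).

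Wif1 (ENSMUSG00000020218, chromosome 10 from 121033960 to 121100650), which binds Wnt ligands through a domain unrelated to that of the Sfrp genes, was close to the floor in 2 of the 3 CTL libraries. It had 4, 2 and 43 reads in CTL, or 0.180, 0.0933 and 1.46 CPM. In Nelfb-/- cells it had 2.80, 4.77 and 11.3 CPM. As for Sfrp2, CTL replicate 3 was the highest CTL library and lay below every Nelfb-/- library. Its log2 fold change reached 3.90 (SE 0.97, limma, adjusted p = 0.042). This was the weakest of the 4 calls. It was lost in 4 of the 6 fits that left out 1 library (CTL replicate 1 or 2, Nelfb-/- replicate 2 or 3), with log2 fold changes of 3.21 to 3.98 and an adjusted p from limma of 0.11 to 0.15, and without the variance trend (limma, adjusted p = 0.054). Without CTL replicate 3 the value was 4.93 (limma, adjusted p = 0.0094), with library weights 5.40, and with a pseudocount of 5 reads 3.22, and these calls held.

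The Dickkopf genes did not follow this direction. Dkk2 (ENSMUSG00000028031, chromosome 3 from 132085292 to 132180304), which binds Lrp5 and Lrp6, was at 5.32, 3.36 and 25.6 CPM in the CTL libraries, and the Nelfb-/- libraries held 1.19, 1.98 and 2.69 CPM. Each Nelfb-/- library was below each CTL library, and CTL replicate 3 was the highest by a wide margin. The log2 fold change of -2.03 (SE 0.76, 95% interval -3.86 to -0.21, limma, adjusted p = 0.12) did not pass, and it was -1.17 without CTL replicate 3 and -2.63 without CTL replicate 2. With the replicate number as a block, Dkk2 was called as lower (limma, adjusted p = 0.041). CTL replicate 3 thus lay toward the Nelfb-/- libraries for Sfrp2 and Wif1 and away from them for Dkk2. Dkk3 (ENSMUSG00000030772, chromosome 7 from 112116017 to 112159057), a divergent member of the family that does not bind Lrp5 and Lrp6 as the others do, had 56.4, 56.4 and 77.0 CPM in CTL against 37.5, 50.2 and 66.8 CPM. Its groups overlapped, and the log2 fold change was -0.32 (SE 0.25, 95% interval -0.91 to 0.27, limma, adjusted p = 0.42).

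Of the intracellular inhibitors, Nkd2 rose in Nelfb-/- cells, and neither Nkd1 nor Axin2 passed the test. Nkd2 (ENSMUSG00000021567, chromosome 13 from 73818534 to 73847631) was at 8.75, 13.3 and 10.4 CPM in the CTL libraries, and the Nelfb-/- libraries held 50.9, 57.7 and 63.6 CPM. Both groups were tight, and CTL replicate 3 was in the middle of its group. The rise of 2.42 in log2 units (SE 0.20, limma, adjusted p = 0.0033) kept its call in all 6 fits that left out 1 library, with values of 2.27 to 2.58. It was the only member of which this was true.

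Nkd1 (ENSMUSG00000031661, chromosome 8 from 88521354 to 88594884), its closest relative and a beta-catenin target in many tissues, was at 12.1, 11.3 and 17.0 CPM in the CTL libraries, and the Nelfb-/- libraries held 3.60, 12.7 and 19.1 CPM. Nelfb-/- replicate 1 was the lowest of all and replicate 3 the highest, so that the CTL libraries lay within the Nelfb-/- range. For Nkd1 the difference in log2 units was -0.47 (SE 0.60, 95% interval -1.90 to 0.96, limma, adjusted p = 0.63), and it was 0.23 without Nelfb-/- replicate 1. The log2 ratio of Nkd2 to Nkd1 was -0.47, 0.24 and -0.70 in CTL and 3.80, 2.18 and 1.73 in Nelfb-/- cells. The difference of 2.88 in this ratio, in which depth cancels, gave the smallest p that the design allows (exact two-sided permutation test, p = 0.1). It was 2.27 to 3.30 with single libraries left out, with the lowest value without Nelfb-/- replicate 1.

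Axin2 (ENSMUSG00000000142, chromosome 11 from 108920349 to 108950783), the widely used readout of canonical Wnt signaling, had 6.76, 6.91 and 2.21 CPM in CTL. The Nelfb-/- libraries held 2.80, 2.21 and 3.26 CPM. CTL replicates 1 and 2 were above all Nelfb-/- libraries, whereas CTL replicate 3 was level with the lowest of them. For Axin2 the log2 fold change was -0.78 (SE 0.48, 95% interval -1.93 to 0.37, limma, adjusted p = 0.31). When CTL replicate 3 was left out, Axin2 was called as lower at -1.31 (limma, adjusted p = 0.021). It was also called as lower with library weights (-1.14, limma, adjusted p = 0.0060) and when both CTL replicate 3 and Nelfb-/- replicate 1 were left out (-1.33, limma, adjusted p = 0.0044). Exons of Axin2 overlap those of an antisense gene, Gm11670.

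**Figure D3:**
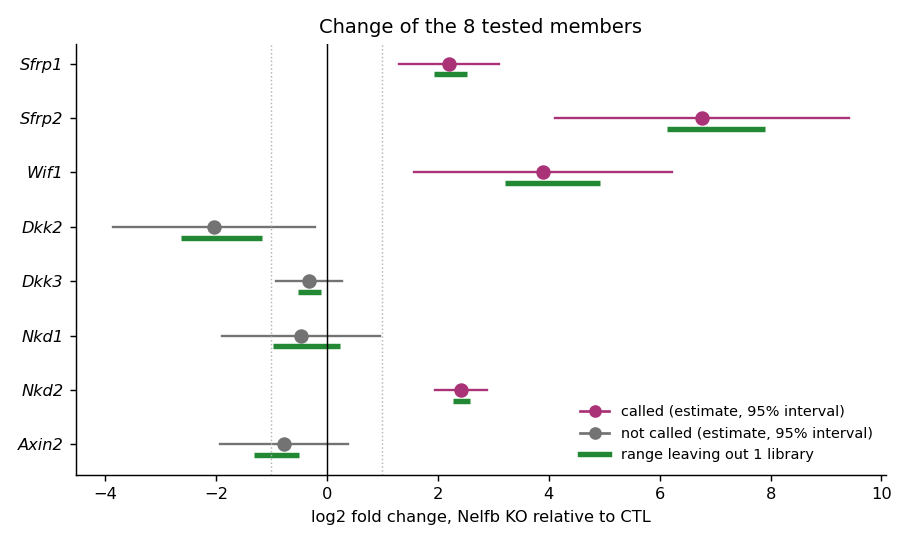
Log2 fold change (Nelfb KO relative to CTL, limma) of the 8 tested members, with points for estimates, thin lines for 95% intervals and thick green lines for the range when 1 library is left out. The 4 called members lie between 2.21 and 6.76, the other 4 lie between -2.03 and -0.32, dotted lines mark a 2-fold change, and only the range of Nkd1 crosses 0.

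Levels of different genes were compared in CPM per kilobase of merged exons. In CTL cells Dkk3 ranked first (18.8 ± 3.54 CPM per kilobase, SD, n = 3), followed by Sfrp1 (11.9 ± 4.55) and Sfrp2 (8.57 ± 11.4), with overlapping ranges between each gene and the next down to Nkd2. Without CTL replicate 3 the mean of Sfrp2 was 2.0 CPM per kilobase, below Nkd1 (2.57) and Nkd2 (2.29), that of Dkk2 was 1.17, below Axin2 (1.24), and that of Wif1 was 0.0564, below Sfrp5 (0.0729). In Nelfb-/- cells Sfrp2 ranked first (624 ± 412 CPM per kilobase), and its range was clear of that of Sfrp1 (55.8 ± 21.7), which was clear of that of Dkk3 (15.3 ± 4.38). The ranges of Dkk3 and Nkd2 (11.9 ± 1.32) overlapped. Below these lay Wif1 (2.59 ± 1.83) and Nkd1 (2.59 ± 1.71), whose ranges overlapped, then Dkk2 (0.527 ± 0.204) and Axin2 (0.501 ± 0.0957), which also overlapped, and Sfrp5 was last. Merged exons include those of rare transcripts, so that these levels can be too low for genes with many annotated exons.

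Because the summed fibroblast and progenitor markers were above every CTL library in 2 of the 3 Nelfb-/- libraries, each member was set against their sum in the same library, a comparison added after the data were seen. Sfrp2 had 0.920, 0.908 and 2.77 CPM per 1000 CPM of these markers in CTL and 40.2, 65.4 and 51.7 in Nelfb-/- cells, so that the groups stayed apart (log2 difference 5.27, exact permutation test, p = 0.1). Wif1 also stayed apart, with 0.0357, 0.0214 and 0.0868 against 0.339, 0.157 and 0.342 (log2 difference 2.41, exact permutation test, p = 0.1). Sfrp1 had 9.11, 8.30 and 4.42 in CTL against 17.9, 11.1 and 7.47, and its groups overlapped (log2 difference 0.72, exact permutation test, p = 0.3). Nkd2 overlapped as well, with 1.73, 3.05 and 0.618 against 6.17, 1.90 and 1.93 (log2 difference 0.92, exact permutation test, p = 0.4). This scale moved the log2 difference of every gene by -1.49, so that the median of all genes tested was -1.43, and 2.36% of them were higher and 11.5% lower in every Nelfb-/- library than in every CTL library. Dkk2, Dkk3 and Nkd1 were among the latter, with log2 differences of -3.53, -1.81 and -1.96, of which those of Dkk3 and Nkd1 lie near this median. Dkk3 was apart only by 4.57 in CTL replicate 3 against 4.54 in Nelfb-/- replicate 1. Axin2 overlapped (log2 difference -2.27, exact permutation test, p = 0.2), and Sfrp5 was also lower in every Nelfb-/- library, where it rested on 1 to 3 reads. Most of the summed level of these markers came from collagen genes, which differed between libraries themselves.

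**Figure D4:**
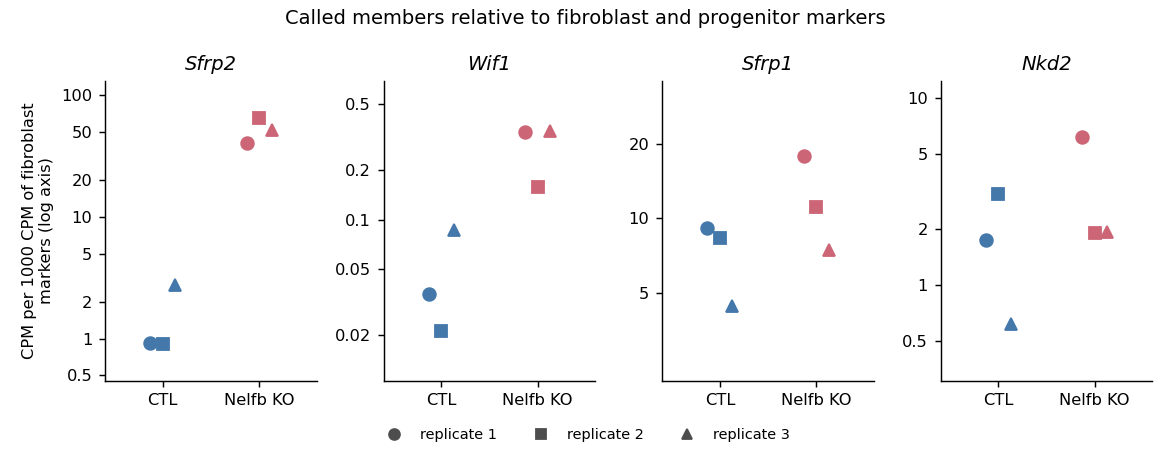
CPM of the 4 called members per 1000 CPM of the summed fibroblast and progenitor markers of the same library (log axes), with a symbol for each replicate. Sfrp2 and Wif1 are higher in all 3 Nelfb KO libraries than in any CTL library, whereas the groups overlap for Sfrp1 and Nkd2.

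The other genes of the pathway were read from 8 lists by role. Of 101 genes listed, 78 were tested, 7 of these were called as higher and 0 as lower by limma at an adjusted p of 0.05 and 2-fold, against 7.58% and 3.64% of all genes tested. At an unadjusted p under 0.05, 22 of 78 were higher and 1 was lower, against 19.6% and 12.9% of all genes tested. Their median log2 fold change was 0.29, against 0.068 for all genes tested. Leaving out CTL replicate 1, 2 or 3 gave 2, 3 or 14 called genes, and leaving out Nelfb-/- replicate 1, 2 or 3 gave 14, 1 or 1.

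Further antagonists outside the 10 members held 2 of the 7 calls among 7 genes tested. At an unadjusted p under 0.05 (limma), 4 of these 7 genes were higher and 1 was lower, against 19.6% and 12.9% of all genes tested. Frzb, a secreted frizzled-related protein also called Sfrp3, rose from 0.361, 0.0467 and 0.714 CPM to 6.07, 14.8 and 7.996 CPM (log2 fold change 4.89, SE 0.80, limma, adjusted p = 0.013). Leaving out Nelfb-/- replicate 2 or 3 ended this call, and the value was 4.02 without CTL replicate 2 and 5.55 without CTL replicate 3. The CTL mean of Frzb, 0.374 CPM, was below the 0.448 CPM that 10 reads were worth, so that it was tested through its Nelfb-/- levels. CTL replicate 2 was under the floor. Apcdd1, a membrane protein that inhibits Wnt signaling, rose from 64.5 ± 2.87 CPM (SD, n = 3) to 180.0 ± 56.8 CPM (log2 fold change 1.42, limma, adjusted p = 0.017), which was called in 2 of 6 fits without 1 library. The 2 most abundant of the others did not pass. Igfbp4 was at -1.12 on the log2 scale (limma, adjusted p = 0.15) and Kremen1, a receptor for Dickkopf proteins, at -0.31 (limma, adjusted p = 0.67).

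Among 9 tested ligands, 1 was called, Wnt10b, an inhibitor of adipogenesis (log2 fold change 2.87, limma, adjusted p = 0.0058). Wnt5a, a ligand of mainly non-canonical signaling, averaged 21.2 ± 12.3 CPM in CTL against 78.1 ± 44.5 CPM (SD, n = 3, log2 fold change 1.79, limma, adjusted p = 0.10), and Wnt9a was at 0.81 on this scale (limma, adjusted p = 0.22). Without Nelfb-/- replicate 1 both were called, at 2.43 and 1.23. Of 15 tested receptors and co-receptors, 2 were called, Ptk7 at 1.89 and Fzd3 at 1.03 on the log2 scale (limma, adjusted p = 0.043 and 0.026). Both calls were lost in 4 of 6 fits without 1 library. The co-receptors Lrp5 and Lrp6, on which Dickkopf proteins act, had log2 fold changes of -0.39 and -0.26 (limma, adjusted p = 0.40 and 0.43). No gene was called, and 0 had an unadjusted p under 0.05, among the 3 of ligand processing, where Wls and Porcn had 0.34 and -0.22, or the 6 of the R-spondin module, where Lgr4 and Lgr5 had 0.15 and 2.06 (limma, adjusted p of 0.20 to 0.81 for these 4). Lgr5 lay between 1.41 and 3.22 with single libraries left out, and it and Rspo2 were called as higher without CTL replicate 3.

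Inside the cell, 1 of 15 genes for Dishevelled and the destruction complex was called, Apc2 (log2 fold change 1.34, limma, adjusted p = 0.040), and this call held in 1 of 6 fits without 1 library. Csnk1a1 and Tnks2, the most abundant of these genes, had log2 fold changes of -0.18 and -0.38. Among 15 nuclear effectors none was called by limma (4 higher at an unadjusted p under 0.05), and 1 of them, Ctnnb1, which encodes beta-catenin, had an adjusted p under 0.05 at less than 2-fold (log2 fold change 0.71, SE 0.16, limma, adjusted p = 0.030), with every Nelfb-/- library above every CTL library. Its partner Bcl9l had -0.04. Of 8 further genes known as beta-catenin targets, 5 were higher and 0 lower at an unadjusted p under 0.05, against 19.6% and 12.9% of all genes tested, and their median log2 fold change was 1.89, against 0.068. The targets Axin2 and Nkd1, described among the members, are not in this list and had -0.78 and -0.47, neither of them called. Whether signaling itself differed was not tested. Only 1 of the 8 was called, Ascl2 (log2 fold change 2.77, limma, adjusted p = 0.023), which was called in 2 of 6 fits without 1 library. Ccnd1 and Jun, the most abundant of the 8, had 1.96 and 0.60 (limma, adjusted p = 0.12 and 0.20). Ccnd1 lay between 1.36 and 2.82 with single libraries left out and was called without CTL replicate 3.

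**Figure D5:**
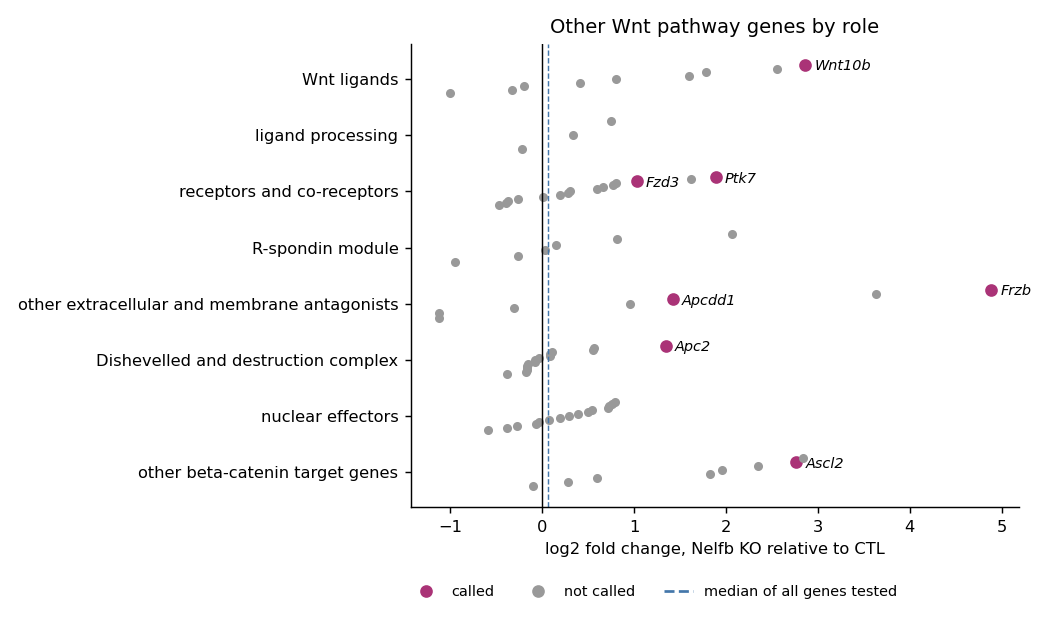
Log2 fold change (Nelfb KO relative to CTL, limma) of 78 other Wnt pathway genes in 8 lists by role, with called genes named and a dashed line at the median of all genes tested (0.068). The 7 called genes all lie above 0, between 1.03 and 4.89, and genes that were not called lie on both sides of 0.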

How the data were processed

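RNA-seq values of 6 libraries, 3 of CTL and 3 of Nelfb-/- cells, were read from 1 table that the authors deposited, and groups were taken from the labels. The deposited values are in CPM, since each column sums to 1000000 once an offset of 0.0001 is subtracted. The submitters' processing notes name mm10, STAR 2.7 and Partek 9.0.20.0202, and the paper's methods name a threshold of 10 reads per gene. How reads were counted, and on which strand, is not stated.

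The spacing of low values gave the size of 1 read, and from it the depth. Between 69.9% and 72.4% of values up to 20 reads were within 0.02 of a whole read, so that no count test was run. CPM were put on a scale of reads at 22300000 per library and transformed as log2(value + 1). Testing used limma 3.58.1 in R 4.3.3 with a variance trend, for genes averaging 10 or more reads, and p was adjusted by Benjamini and Hochberg over all genes. The added 1 makes folds of sparse genes too small. Gene positions and merged exon lengths are from GENCODE vM21 (GRCm38), in which 98.9% of 17551 genes matched by name had the same start and end as in the table.

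The members and lists were chosen with earlier results of these data known. Genes named are all members, Nelfb, each called gene and the 2 most abundant others of each role list, and for called members the 3 genes with the closest centred log2 profile. Cell type markers were named outside this rule, after their values were seen, and antisense genes from the annotation. Rspo2, for its call without CTL replicate 3, and Tnfrsf19, for its low CTL level, were also named outside it. Some other genes that were called only with 1 library left out were not named. Alternatives covered the pseudocount, the filter, scaling, variance trend, library weights, a replicate block and each library left out.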

Additional observations from a re-analysis of the deposited data

How the results depend on the processing

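With each library left out in turn, between 426 and 2480 genes were called instead of 1824, between 1 and 5 members instead of 4, and between 1 and 14 other Wnt pathway genes instead of 7. The lowest member count of 1, Nkd2, arose without CTL replicate 1, CTL replicate 2 or Nelfb-/- replicate 3. With library weights 4318 genes and 25 other Wnt pathway genes were called, and without both CTL replicate 3 and Nelfb-/- replicate 1, chosen after the data were seen, 4383 and 23. Both settings called 5 members, with Axin2 (lower) in addition. Deviations from the group means correlated between the groups at 0.52, -0.39 and 0.52 for replicate numbers 1, 2 and 3. With 3 libraries in each group, these values cannot show whether libraries of the same number were paired. With the replicate number as a block, 2175 genes, 5 members (Dkk2 in addition) and 13 other Wnt pathway genes were called.

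Dropping 1 library moved Dkk3 between -0.53 and -0.11 and Nkd1 between -0.96 and 0.23 (log2 fold changes). Nkd1 reversed to 0.23 without Nelfb-/- replicate 1, to 0.43 with library weights and to 0.41 without both libraries, and Dkk3 to 0.084 and 0.039 under the latter 2 settings. The cause was not tested. Both scalings, both pseudocounts and both filters left each of the 8 tested members with its direction and its side of the threshold. Depth limited Sfrp5 and the CTL level of Wif1. Library weights came from a gene by gene estimate, since the iterative one did not converge.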

Other observations

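For the 4 called members, the genes with the most similar profile over the 6 libraries were found by the mean absolute difference of log2 values centred on each gene's mean. Nearest to Sfrp2 was Cxcl5 (0.60 log2 units), which encodes a chemokine, followed by Kif26b (0.72) and Lep (0.75), which encodes leptin. Lep is an adipocyte marker by name, and it had 0.180, 0.373 and 2.04 CPM in CTL against 10.3, 32.4 and 33.0 CPM in Nelfb-/- cells (log2 fold change 5.26, limma, adjusted p = 0.014). Of the 8 genes on that marker list, Lep was the 1 called as higher and Retn, which encodes resistin, the 1 called as lower (log2 fold change -2.12, limma, adjusted p = 0.013). Fabp4, Plin1 and Retn were lower in every Nelfb-/- library than in every CTL library, as were 16.1% of all genes tested, Lep was higher in every one, as were 22.0%, and the groups overlapped for the other 4 (Adipoq, Cfd, Cidec and Lipe). Nearest to Sfrp1 were Endod1 (0.10), Slc8a3 (0.11) and Relt (0.12). Wif1 was closest to Spock1 (0.30), Pcsk1 (0.35) and Acan (0.36), of which Acan encodes aggrecan, a proteoglycan of cartilage. Cxcl5, Spock1, Pcsk1 and Acan were under the floor in CTL replicates 1 and 2, where the added 1 read has a large part in the log2 values. Nkd2 was closest to Cdh24 (0.14), Ccdc116 (0.14) and Phlda1 (0.15), and Phlda1 rose from 10.6, 11.3 and 10.8 CPM to 57.6, 68.5 and 62.6 CPM (log2 fold change 2.52, limma, adjusted p = 0.0023).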
